A study of Mus musculus with 4 samples.

Results

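CCN and thrombospondin genes encode matricellular proteins, secreted proteins that sit in the extracellular matrix and act on cells and growth factors more than they bear load. The 10 genes described here were taken by name, 5 of the CCN family (Ctgf, Cyr61, Nov, Wisp1 and Wisp2) and 5 of the thrombospondin family (Thbs1, Thbs2, Thbs3, Thbs4 and Comp), and all 10 were among the 23337 gene symbols of the deposited tables. The last CCN gene, Wisp3, was close to silent, with 1 read in the control library of 2 months, 2 in that of 6 months, 1 in the csPIMT-/- library of 2 months and 0 in that of 6 months, a count that allows up to 3 reads. It was therefore left out of the comparisons.

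The libraries were RNA-seq of whole mouse heart on the C57BL6/J background, 1 for each genotype and age. PIMT fl/fl mice, the controls, carried loxP sites around exons 3 to 4 of the gene for PIMT (Tgs1) on both alleles without the Cre transgene, and csPIMT-/- mice carried the same alleles with a Cre transgene driven by the α-MyHC promoter, which is active in cardiomyocytes. Each genotype was sampled at 2 and at 6 months of age, and each library pooled RNA of 5 hearts from male and female mice, so that the spread between animals was not measured. Fibroblasts, endothelium and blood cells are not targeted by this promoter, and in such bulk RNA fewer cells of a type and less RNA per cell cannot be told apart.

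In the heart, these proteins are known mostly from injury, pressure load and scar formation. Ctgf and Cyr61 are classical targets of the YAP and TAZ coactivators, which act through TEAD factors, and Ctgf is also induced by TGF-beta. CCN proteins share modules that bind insulin-like growth factors, TGF-beta family ligands, integrins and proteoglycans, and Wisp2 lacks the cysteine knot module at the C-terminus that the other CCN proteins carry. Thrombospondins bind calcium and integrins. Thbs1 and Thbs2 assemble as trimers that also bind CD36 and CD47 and hold down vessel growth, and Thbs1 can activate latent TGF-beta. Thbs3, Thbs4 and Comp assemble as pentamers that are best known from tendon, cartilage and bone, and Thbs4 is in addition known for an action on the ATF6 arm of the endoplasmic reticulum stress response in cardiomyocytes.

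Upstream sequence is shown for 3 members, because Cyr61 and Thbs4 were higher in the csPIMT-/- libraries at both ages whereas Thbs2 lay within 2-fold. RefSeq promoters of the build GRCm38.p6 matched 4 of the 10 genes (these 3 and Thbs3). Ctgf, Nov, Wisp1, Wisp2, Thbs1 and Comp had no entry. Each line below gives the 250 bases before the transcription start, read 5′ to 3′ on the strand of the gene. Capitals mark matches, on either strand, to GGAATG, the core letters of a TEAD site, and CAGAC, the core of a SMAD site. TGANTCA, an AP-1 site, and the CArG box of serum response factor were also searched.
Cyr61, chr3:145649986-145650235, minus strand: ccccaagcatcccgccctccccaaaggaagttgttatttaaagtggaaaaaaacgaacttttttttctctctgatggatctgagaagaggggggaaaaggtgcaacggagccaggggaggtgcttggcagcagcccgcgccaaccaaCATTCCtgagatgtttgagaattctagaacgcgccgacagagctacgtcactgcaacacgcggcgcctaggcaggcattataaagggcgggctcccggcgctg
Thbs4, chr13:92794819-92795068, minus strand: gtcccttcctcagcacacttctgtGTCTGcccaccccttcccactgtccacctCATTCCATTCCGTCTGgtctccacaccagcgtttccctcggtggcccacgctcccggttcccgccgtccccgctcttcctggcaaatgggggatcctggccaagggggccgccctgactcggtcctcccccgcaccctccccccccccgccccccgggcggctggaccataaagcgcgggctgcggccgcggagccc
Thbs2, chr17:14694263-14694512, minus strand: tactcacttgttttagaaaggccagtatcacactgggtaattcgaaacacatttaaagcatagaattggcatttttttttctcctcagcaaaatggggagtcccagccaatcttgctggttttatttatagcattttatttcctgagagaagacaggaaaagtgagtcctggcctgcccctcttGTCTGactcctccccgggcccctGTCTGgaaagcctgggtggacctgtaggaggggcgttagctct

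The Cyr61 window held 1 TEAD match, read as CATTCC on the strand shown, 103 to 98 bases before the start. The Thbs4 window held 2 TEAD matches that overlap by a base, at 197 to 192 and 192 to 187 bases before the start, and 2 SMAD matches, at 226 to 222 and 186 to 182. The Thbs2 window held 2 SMAD matches, at 66 to 62 and 43 to 39. The Thbs3 window (chr3:89214930-89215179, plus strand) held no match, although Thbs3 too was higher in both csPIMT-/- libraries than in both controls. Of 32851 mouse promoters of the same length, 12.6% held the TEAD letters, 42.2% the SMAD letters, 6.75% the AP-1 letters and 1.47% a CArG box, and a match describes the sequence only.

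Ctgf, Thbs4 and Wisp2 had also been chosen for RT-qPCR, and the primers show which stretch of each messenger was amplified. All of them lay in the coding sequence of a GENCODE transcript, with amplicons of 106 bases for Ctgf, 120 bases for Thbs4 and 100 bases for Wisp2. The primers are given 5′ to 3′ in lower case, with no part marked.
Ctgf forward: cttcccgagaagggtcaag
Ctgf reverse: cagtcggtaggcagctagg
Thbs4 forward: acggctgaacaaagccatc
Thbs4 reverse: ttgctcagtctcaggagaacc
Wisp2 forward: aatacaggtgccaggaaggt
Wisp2 reverse: agaaagttggtgtccttggg

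The libraries held between 29823073 and 40705783 reads on genes. A value below is a normalized count, the number of reads of a gene in a library scaled by the authors for depth, where 1 read was worth between 0.865 and 1.23. A ratio divides the normalized count of a csPIMT-/- library by that of the control of the same age, and its 95% interval (exact, Clopper-Pearson) covers counting error only, not differences between animals. Tgs1 itself (chr4:3574875-3616619) had normalized counts of 580 and 816 in the controls of 2 and 6 months and of 160 and 162 in the csPIMT-/- libraries. Its ratio was 0.276 (interval 0.227 to 0.334) at 2 months and 0.199 (0.167 to 0.236) at 6 months, or 0.602 and 0.495 with the trend on GC content subtracted. Both csPIMT-/- libraries lay below both controls, in the direction of their labels. Reads outside the deleted exons still count, so the check is partial.

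The pools also differed in ways that touch the comparisons. Transcripts of higher GC content had higher ratios, with Spearman's rho across genes of 0.580 over 14976 genes at 2 months and 0.607 over 15040 genes at 6 months, and ratios with that trend subtracted are given for each member. The summed level of 8 cardiomyocyte markers lay between 1324190 and 1388760 in all libraries, but its members moved apart, since Myh7, the fetal myosin heavy chain, had ratios of 4.18 and 47.2 and Pln, the inhibitor of the calcium pump, 0.389 and 0.257. Without Myh7 the sum was 1381560 and 1319520 in the controls and 1333660 and 1013270 in csPIMT-/-. Atrial genes differed widely between the libraries. Bmp10 was at 5.19 in the control of 2 months, at 6296 in that of 6 months, and at 8564 and 1079 in the csPIMT-/- libraries. All 6 atrial markers stood more than 2-fold above control at 2 months (17.3% of all genes), whereas 4 of 6 stood below 0.5-fold at 6 months (24.9%). Xist was at 805 in the control of 2 months and between 6369 and 25639 in the others, and Ddx3y, on the Y chromosome, was at 3150 there and between 162 and 514 in the others. The make-up of the control pool of 2 months thus stood apart in sex and atrial share, and values against the control of the other age are given for the 5 members (Nov, Wisp2, Thbs1, Thbs4 and Comp) that they moved by over 1.5 times. The csPIMT-/- pool of 2 months stood apart too. Its lung markers summed to 1161, against 1.73 to 17.7 elsewhere, and its brown fat markers to 16328, against 1908 to 4637. A change of control leaves that pool in every 2-month ratio, and its part in them was not tested.

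Most members had more RNA in the csPIMT-/- hearts. At 2 months, 6 of the 10 genes (Ctgf, Cyr61, Nov, Wisp2, Thbs4 and Comp) had ratios above 2 and 2 (Wisp1 and Thbs1) had ratios below 0.5, where 17.3% of the 15152 genes compared were above 2 and 22.5% below 0.5. At 6 months 7 members were above 2 (Ctgf, Cyr61, Wisp2, Thbs1, Thbs3, Thbs4 and Comp) and 2 were below 0.5 (Nov and Wisp1), beside 16.9% and 24.9% of 15218 genes. The median ratio of the members was 2.17 at 2 months and 5.26 at 6 months, while the median over all genes compared was 0.997 and 1.002. Above 2 at both ages were Ctgf, Cyr61, Wisp2, Thbs4 and Comp, as were 7.73% of all genes, and below 0.5 at both ages was Wisp1, as were 16% of all genes.

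A fit over all 4 libraries with terms for genotype and age (limma, Benjamini-Hochberg adjustment over 14933 genes) called 6 members higher in csPIMT-/- (Ctgf, Cyr61, Wisp2, Thbs3, Thbs4 and Comp) and Wisp1 lower, with adjusted p between 0.0157 and 0.0306. In the same fit 11% of all genes were called higher and 17.5% lower. Nov, Thbs1 and Thbs2 were not called. The fit takes both ages as repeats of the genotype and has 1 residual degree of freedom, so its calls lean on the spread borrowed from other genes. None of the 7 calls was kept without the trend of the variance on the mean (adjusted p 0.0676 to 0.0888) or with the GC trend subtracted (adjusted p 0.0900 to 0.198).

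**Figure D1:**
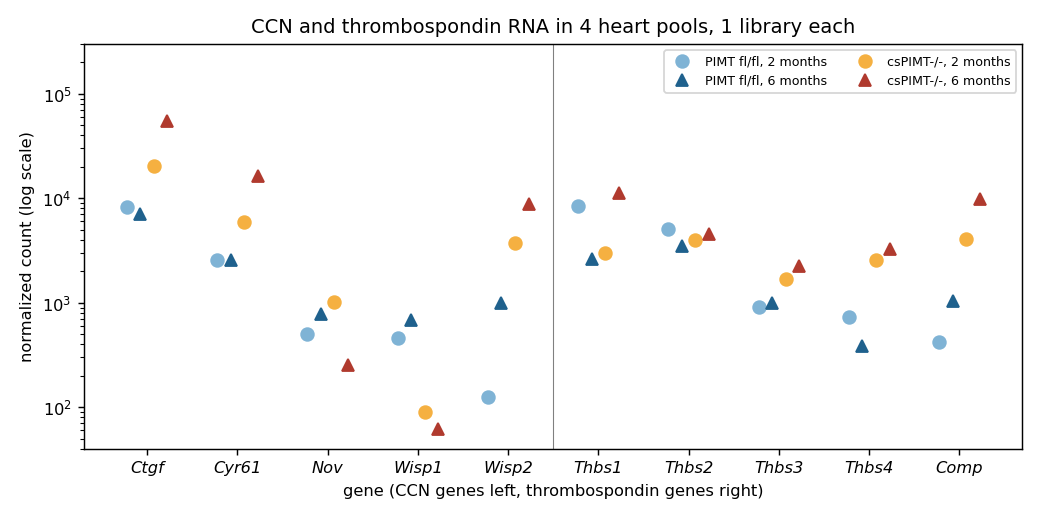
Normalized counts (log axis) of the 10 genes in the 4 libraries, 1 point per library (circles 2 months, triangles 6 months, blue PIMT fl/fl, yellow and red csPIMT-/-). For Ctgf, Cyr61, Wisp2, Thbs3, Thbs4 and Comp both csPIMT-/- points lie above both control points, and for Wisp1 both lie below. The share of all genes that separate in these ways was not counted.

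Ctgf, on chromosome 10 (chr10:24595442-24598683, build GRCm38, plus strand), had the highest level per kilobase of the members in every library. Its normalized count was 8225 in the control of 2 months, 7004 in the control of 6 months, 20501 in csPIMT-/- of 2 months and 55493 in csPIMT-/- of 6 months. Both csPIMT-/- libraries lay above both controls, and the controls lay close to each other. The ratio was 2.49 (interval 2.43 to 2.56) at 2 months and 7.92 (7.74 to 8.11) at 6 months, and the limma estimate over both ages was 2.15 on the log2 scale (SE 0.424, adjusted p = 0.0259). Subtracting the GC trend left 2.67 and 8.29. Between 2 and 6 months the csPIMT-/- level was multiplied by 2.71 and the control level by 0.852. The call was not made without the control of 6 months.

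Cyr61 (chr3:145646976-145649981, minus strand), which encodes a partner of integrins in adhesion and cell survival, ran close to Ctgf at a lower level. The controls held 2553 and 2590 normalized counts at 2 and 6 months, and the csPIMT-/- libraries 5885 and 16255. Again the controls were nearly alike and both csPIMT-/- libraries were higher, with ratios of 2.30 (2.20 to 2.41) and 6.28 (6.03 to 6.53). Over both ages limma gave 1.93 on the log2 scale (SE 0.376, adjusted p = 0.0256). Subtraction of the GC trend brought the ratio of 2 months to 1.80, within 2-fold, and that of 6 months to 4.64. The call was not made without the control of 2 months or without that of 6 months.

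Wisp2 (chr2:163820861-163833146, plus strand) had the highest ratio of the members at 2 months. Its normalized count was 125 in the control of 2 months, from 144 reads, 990 in the control of 6 months, 3709 in csPIMT-/- of 2 months and 8889 in csPIMT-/- of 6 months. The csPIMT-/- libraries lay above both controls, but the controls themselves differed by 7.95-fold. The ratio was 29.8 (25.2 to 35.4) at 2 months and 8.98 (8.43 to 9.56) at 6 months, and 118 genes had a higher ratio at 2 months and 235 at 6 months. Set against the control of 6 months, the csPIMT-/- library of 2 months gave 3.74, and the csPIMT-/- library of 6 months set against the control of 2 months gave 71.3, so the size of the 2-month ratio rests on the control of that age. Subtraction of the GC trend left 18.7 and 5.58. The limma estimate was 4.02 on the log2 scale (SE 0.439, adjusted p = 0.0157), a call that was not made without either csPIMT-/- library.

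Wisp1 (chr15:66891320-66923201, plus strand), named for its induction by Wnt signals, was the only CCN gene below control at both ages. It stood at 459 and 678 normalized counts in the controls of 2 and 6 months, from 531 and 771 reads. In csPIMT-/- it stood at 90.0 and 62.4, from 73 and 60 reads. Both csPIMT-/- libraries were far below both controls, with ratios of 0.196 (0.151 to 0.251) and 0.0921 (0.0696 to 0.120). After subtraction of the GC trend these were 0.282 and 0.140. The limma estimate was -2.88 on the log2 scale (SE 0.415, adjusted p = 0.0169), and the call was not made without the control of 6 months.

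Nov (chr15:54745702-54754039, plus strand), a CCN protein that often opposes Ctgf in culture, went opposite ways at the 2 ages. It was at 503 and 787 in the controls of 2 and 6 months and at 1025 and 255 in the csPIMT-/- libraries. The csPIMT-/- library was the highest of the 4 at 2 months and the lowest at 6 months. The ratio was 2.04 (1.83 to 2.27) at 2 months and 0.324 (0.280 to 0.373) at 6 months, and 1.1% of all genes were above 2 at 2 months and below 0.5 at 6 months. Scaling by the 2 libraries compared gave 1.998, just within 2-fold, at 2 months. Against the control of the other age the ratios were 1.30 and 0.507, both within 2-fold, and with both controls summed that of 2 months was 1.59. Subtracting the GC trend gave 3.33 and 0.587, and limma over both ages gave -0.30 on the log2 scale (SE 0.643, adjusted p = 0.743).

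**Figure D2:**
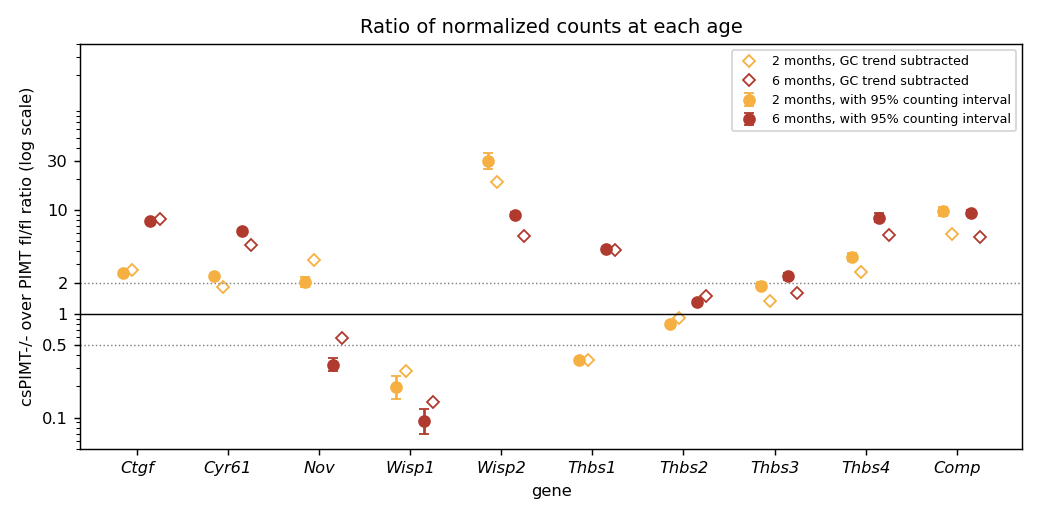
Ratio of csPIMT-/- over PIMT fl/fl normalized counts (log axis) for each gene at 2 months (yellow) and 6 months (red). Filled points carry 95% counting intervals and open diamonds have the GC trend subtracted, and dotted lines mark 2 and 0.5. Wisp2 reaches 29.8 at 2 months, Wisp1 falls to 0.0921 at 6 months, and Nov and Thbs1 lie on opposite sides of 1 at the 2 ages.

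Among the trimeric thrombospondins, Thbs1 (chr2:118111876-118127133, plus strand) had the widest swing. Its normalized count was 8398 in the control of 2 months, 2636 in the control of 6 months, 3010 in csPIMT-/- of 2 months and 11186 in csPIMT-/- of 6 months. The ranges of the genotypes overlapped, because the control was high at 2 months and csPIMT-/- at 6 months. The ratio was 0.358 (0.343 to 0.375) at 2 months and 4.24 (4.08 to 4.42) at 6 months, and 0.704% of all genes were below 0.5 at 2 months and above 2 at 6 months. GC subtraction left both nearly unmoved, at 0.360 and 4.12. Against the control of the other age the ratios were 1.14 and 1.33, within 2-fold at both ages. Over both ages limma gave 0.30 on the log2 scale (SE 0.815, adjusted p = 0.797).

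Thbs2 (chr17:14665500-14694235, minus strand), a trimeric thrombospondin known for its part in collagen fibril assembly, stayed within 2-fold. It held 5049 and 3512 normalized counts in the controls of 2 and 6 months and 4023 and 4578 in csPIMT-/-. Both csPIMT-/- values lay between the control values. The ratio was 0.797 (0.763 to 0.832) at 2 months and 1.30 (1.25 to 1.36) at 6 months, or 0.921 and 1.497 with the GC trend subtracted. limma gave 0.03 on the log2 scale (SE 0.252, adjusted p = 0.941). The summed level of 10 fibroblast markers, among them Col1a1, Dcn and Postn, was 294930 and 156374 in the controls and 202831 and 210619 in csPIMT-/-, a ratio of 0.688 at 2 months and 1.35 at 6 months. None of these markers was above 2 and 3 were below 0.5 at 2 months (17.3% and 22.5% of all genes). At 6 months 3 were above 2 and 1 below 0.5 (16.9% and 24.9%), and none was at 0. The part of fibroblast content in the levels of Thbs1 and Thbs2 was not tested.

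Comp (chr8:70373558-70382066, plus strand), a pentamer named for cartilage that binds collagens, had a higher ratio than the other thrombospondins at both ages, an order that did not hold over Thbs4 at 6 months with the GC trend subtracted (5.52 against 5.82) or at 2 months against the control of the other age (3.92 against 6.59). Its normalized count was 421 in the control of 2 months, 1045 in that of 6 months, 4096 in csPIMT-/- of 2 months and 9822 in csPIMT-/- of 6 months. The genotypes did not overlap. The ratio was 9.72 (8.83 to 10.7) at 2 months and 9.40 (8.85 to 9.99) at 6 months, almost the same at the 2 ages, and became 5.84 and 5.52 with the GC trend subtracted. Against the control of the other age it was 3.92 and 23.3. The limma estimate was 3.25 on the log2 scale (SE 0.207, adjusted p = 0.0157), and Comp was called in each fit that left out 1 of the 4 libraries.

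Thbs4 (chr13:92751590-92794818, minus strand) was at 726 and 388 in the controls of 2 and 6 months and at 2556 and 3266 in csPIMT-/-. Both csPIMT-/- libraries were above both controls. Its ratio was 3.52 (3.25 to 3.82) at 2 months and 8.42 (7.62 to 9.32) at 6 months, or 2.52 and 5.82 with the GC trend subtracted and 6.59 and 4.498 against the control of the other age. Most of the distance between the ages lay in the control, whose level at 6 months was 0.534 of that at 2 months, while csPIMT-/- gave 1.28. The limma estimate was 2.44 on the log2 scale (SE 0.356, adjusted p = 0.0171), and Thbs4 too was called whichever library was left out.

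Thbs3 (chr3:89215180-89226837, plus strand), a pentamer known from skeletal growth, showed the smallest difference of the genes called. It was at 909 and 989 in the controls and at 1706 and 2271 in csPIMT-/-, with both csPIMT-/- libraries above both controls. Ratios of 1.88 (1.73 to 2.03) and 2.30 (2.14 to 2.47) became 1.34 and 1.58 once the GC trend was subtracted, both within 2-fold. limma gave 1.05 on the log2 scale (SE 0.227, adjusted p = 0.0306), a call lost when any library but csPIMT-/- of 2 months was left out. Exons of Thbs3 overlap those of Mtx1 on the opposite strand, a mitochondrial outer membrane gene with ratios of 1.56 and 1.46. Exons of Ctgf and Thbs1 overlap Gm15270 and Gm29233 on the opposite strand. The libraries kept strand, but whether the counting used it is not given in the sources used here.

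**Figure D3:**
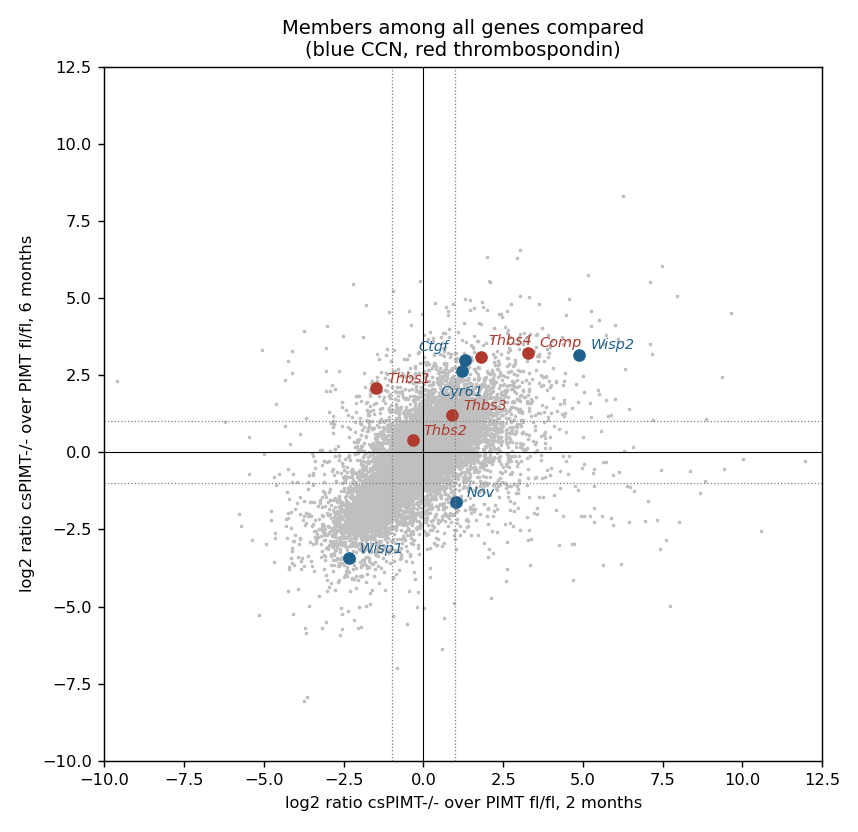
log2 ratio of csPIMT-/- over PIMT fl/fl at 2 months (x axis) and 6 months (y axis) for 14781 genes compared at both ages (grey, with 0.5 reads added), with the CCN genes in blue and the thrombospondin genes in red and dotted lines at 2-fold. Ctgf, Cyr61, Wisp2, Thbs4 and Comp lie past 2-fold in the upper right, Wisp1 in the lower left, Thbs1 in the upper left and Nov in the lower right.

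Markers of the tissues in which the pentameric genes and Wisp2 are otherwise known were set beside them. The summed level of 10 tendon, cartilage and valve markers was 1641 and 2635 in the controls and 9066 and 8513 in csPIMT-/-. At 2 months 6 of 10 were above 2 (17.3% of all genes). At 6 months 6 of 9 were above 2 and 2 below 0.5 (16.9% and 24.9%). With the GC trend subtracted 5 were above 2 and 0 below 0.5 at 2 months (2233 and 1722 of 14976 genes). At 6 months 3 and 2 were (2140 and 1984 of 15040). None of the 10 markers was at 0. Scx, the tendon transcription factor, was at 172, 208, 626 and 2326 (controls of 2 and 6 months, then csPIMT-/- of 2 and 6 months), and Cytl1, a cartilage cytokine, at 414, 880, 4399 and 4548. Cytl1 was the largest part of both csPIMT-/- sums. The 2 genes below 0.5 at 6 months were Acan (0.298, after 1.37 at 2 months) and Cilp2 (0.274, after 17.9). Sox9 had ratios of 0.753 and 0.549. Tnmd, a defining gene of mature tendon, was at 21.6, 3.52, 19.7 and 2.08, near the lower limit of counting. The summed atrial level was 41731, 126707, 339946 and 352147, with none of the 6 genes at 0. Most of it was Nppa, and the other 5 genes summed to 3549, 56048, 138766 and 31851, lower in csPIMT-/- of 6 months than in its control. The part of valve, tendon and atrial tissue in the members' levels was not tested.

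Other cell types are given in the same order of libraries. Of all genes compared, 17.3% were above 2 and 22.5% below 0.5 at 2 months, and 16.9% and 24.9% at 6 months. Macrophage markers summed to 12221, 22810, 28797 and 40057, with 4 of 6 above 2 at 2 months and 3 of 6 at 6 months. With the GC trend subtracted 4 and 1 of these markers were above 2. Epicardial and mesothelial markers summed to 825, 624, 2725 and 707, brown fat markers to 1908, 3857, 16328 and 4637, and lung markers to 1.73, 8.79, 1161 and 17.7, all highest in the csPIMT-/- library of 2 months. At that age 5 of 6 epicardial genes were above 2 and 1 below 0.5, 4 of 5 brown fat genes were above 2, and all 3 lung genes compared were, whereas each lung gene was at 0 in at least 1 library. At 6 months 0 epicardial genes were above 2 and 1 below 0.5. Of the brown fat genes 1 was above 2 and 2 below 0.5, and 0 lung genes were compared. Platelet markers, whose cells store Thbs1 protein, summed to 1192, 1546, 1658 and 2018, with 2 of 6 below 0.5 at 2 months, 2 above 2 and 1 below 0.5 at 6 months, and Gp6 at 0 in csPIMT-/- of 6 months. Smooth muscle and pericyte markers gave 62501, 52653, 70342 and 36125. At 2 months 3 of 6 (Cnn1, Tagln and Myh11) were above 2 and 1 (Rgs5) below 0.5, and at 6 months 0 and 1. Endothelial markers gave 66888, 56225, 60148 and 73291. Of 6, 1 was above 2 and 3 (Kdr, Tek and Fabp4) below 0.5 at 2 months, and 1 and 1 at 6 months. The endothelial gene above 2 was Vwf at both ages (ratios 3.44 and 3.24). Skeletal muscle markers gave 101758, 103860, 246616 and 173721, mostly Acta1 and Ckm. The sum without Acta1 was 78935, 79584, 124470 and 79609. Of these 6 genes 1 was above 2 and 3 (Myh1, Myh2 and Myh4) were below 0.5 at 2 months, and 5 were above 2 at 6 months. Among red cell markers Alas2 was at 3832, 2855, 2313 and 12284 and the 3 globin genes were listed at 0 in every library, and thymus and lymphocyte markers summed to 48.5, 66.8, 72.7 and 90.5. Their part in the members' levels was not tested.

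Summed over each family, the balance of the genes moved as well as the amount. The CCN genes took 344 and 337 reads per 1000000 reads on genes in the controls of 2 and 6 months, 849 in csPIMT-/- of 2 months and 2151 in that of 6 months. The summed normalized count gave ratios of 2.63 and 6.72. Ctgf held between 58.1% and 69.3% of CCN reads in all 4 libraries, and Cyr61 between 18.9% and 21.5%. Wisp2 held 1.05% and 8.22% in the controls and 11.9% and 11.0% in csPIMT-/-, while Wisp1 went from 3.87% and 5.63% to 0.288% and 0.0771%.

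The thrombospondin genes took 450 and 239 reads per 1000000 in the controls and 419 and 827 in csPIMT-/-. Their summed normalized count was therefore level at 2 months, with a ratio of 0.993, and 3.63 at 6 months. That level sum at 2 months held opposite parts, since the trimeric Thbs1 and Thbs2 together had a ratio of 0.523 and the pentameric Thbs3, Thbs4 and Comp together 4.06. At 6 months both were above 1, at 2.56 and 6.34. The trimeric sum was 13447 and 6148 in the controls of 2 and 6 months and 7033 in csPIMT-/- of 2 months. The sum over the whole family was 15503.5, 8568.8 and 15390.5 in the same order. In csPIMT-/- of 2 months both sums thus lay above those of the control of 6 months. The level sum and the trimeric ratio below 1 rest on the control of 2 months. Thbs1 held 54.2% of thrombospondin reads in the control of 2 months, 30.8% in that of 6 months, and 19.6% and 35.9% in csPIMT-/-. Comp held 2.72% and 12.2% in the controls and 26.6% and 31.6% in csPIMT-/-.

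**Figure D4:**
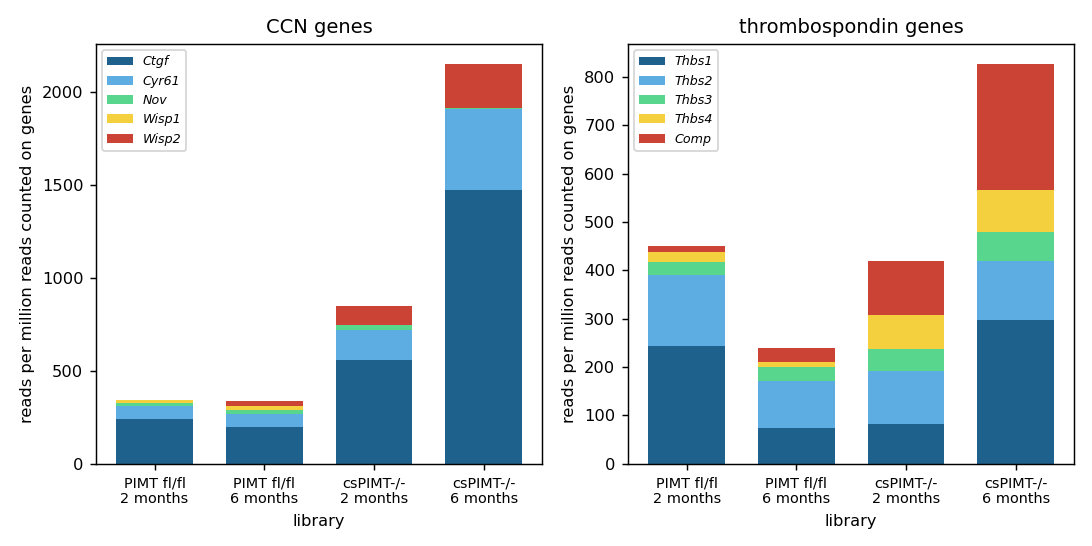
Reads per 1000000 reads on genes in each library, stacked by gene, for the CCN genes (left) and the thrombospondin genes (right), each axis starting at 0. The CCN bar of csPIMT-/- at 6 months reaches 2151, and the thrombospondin bars of 2 months are similar in height (450 and 419) but differ in the share of Thbs1 and Comp.

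Levels can be compared between genes only per length, here as normalized count per kilobase of the longest transcript. In the control of 2 months the order was Ctgf at 3303, Thbs1 at 1436, Cyr61 at 1265 and Thbs2 at 856, followed by Thbs4 at 227, Thbs3 at 225, Nov at 175, Comp at 174, Wisp1 at 90.1 and Wisp2 at 72.5. In csPIMT-/- of 6 months it was Ctgf at 22286, Cyr61 at 8051, Wisp2 at 5171, Comp at 4065, Thbs1 at 1913, Thbs4 at 1021, Thbs2 at 777, Thbs3 at 563, Nov at 88.8 and Wisp1 at 12.2. Wisp2, the lowest of the 10 in the first library, was thus the third in the last, and Comp went from below Thbs2 to above it. With 1 library a group, neighbours as close as Thbs4 and Thbs3, or Nov and Comp, in the control of 2 months cannot be ordered.

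Age within a genotype was compared with the same libraries, so these ratios share them with those above. From 2 to 6 months in controls, Wisp2 (7.95) and Comp (2.48) were above 2 and Thbs1 (0.314) was below 0.5, whereas the other 7 lay between, and 9.01% of all genes were above 2 and 4.65% below 0.5. In csPIMT-/-, 5 members were above 2, namely Thbs1 (3.72), Cyr61 (2.76), Ctgf (2.71), Wisp2 (2.40) and Comp (2.40), and Nov (0.249) was below 0.5, beside 9.71% and 8.2% of all genes. The median age ratio of the members was 1.05 in controls and 1.86 in csPIMT-/-, where the medians over all genes were 1.05 and 1.04. Age and pool cannot be told apart with 1 pool per age.

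Receptors of the CCN and thrombospondin proteins went both ways. Of 24 genes, 5 were above 2 and 5 below 0.5 at 2 months (17.3% and 22.5% of all genes). At 6 months 6 and 5 were (16.9% and 24.9%). With the GC trend subtracted 4 and 4 were at 2 months and 5 and 1 at 6 months. Among all genes that subtraction left 2233 of 14976 above 2 and 1722 below 0.5 at 2 months. At 6 months it left 2140 and 1984 of 15040. These numbers are also the base for the GC-subtracted counts of the lists below. limma called 5 higher and 5 lower (11% and 17.5% of all genes). Lrp1, an endocytic receptor that clears Ctgf and thrombospondins, rose, with normalized counts of 21332 and 27710 in the controls and 69851 and 86104 in csPIMT-/- (ratios 3.27 and 3.11, limma adjusted p = 0.0166). Itgb5, the partner of integrin alpha-v, had ratios of 2.42 and 3.70. Among those lower at both ages were Itgb1, the shared beta subunit of many matrix integrins (0.276 and 0.308, limma adjusted p = 0.0157), and Cacna2d1, the calcium channel subunit that binds thrombospondins (0.277 and 0.171). Cd36, the receptor of Thbs1 and Thbs2 that also carries fatty acids, was at 57866 and 59323 in the controls and at 21937 and 20896 in csPIMT-/- (limma adjusted p = 0.0187). Cd47 had ratios of 1.18 at both ages and was not called.

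The next list held 27 genes of YAP, TAZ and TEAD, their regulators and their other targets. At 2 months 1 was above 2 and 2 were below 0.5 (17.3% and 22.5% of all genes), and 8 and 2 were at 6 months (16.9% and 24.9%). limma called 4 higher (Ankrd1, Axl, Gadd45b and Igfbp3) and 2 lower (Lats1, listed as a regulator, and Dlc1), beside 11% and 17.5% of all genes. Gadd45b, a stress response gene, had ratios of 2.48 and 4.28. Yap1 itself was at 0.648 and 0.694 and was not called. The list's median was -0.03 at 2 months and 0.58 at 6 months on the log2 scale, and that of 6 months was 0.33 with the GC trend subtracted, when 3 genes were above 2 and 1 below 0.5.

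The TGF-beta list held 18 ligands, receptors, SMAD factors and targets. It had 3 above 2 and 3 below 0.5 at 2 months (17.3% and 22.5% of all genes). At 6 months 8 and 1 were (16.9% and 24.9%), or 4 and 0 with the GC trend subtracted. In limma 3 were higher and 2 lower (11% and 17.5% of all genes). Ltbp2, which binds microfibrils, stood at 352 and 696 in the controls and at 2889 and 9838 in csPIMT-/- (ratios 8.20 and 14.1, limma adjusted p = 0.0157). Tgfb3, a ligand of the family, was also called higher. Tgfb2 was at 615 and 661 in the controls and at 621 and 3557 in csPIMT-/-, and was not called. Smad2, a factor that carries the receptor signal, was lower, with ratios of 0.484 and 0.443.

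Since Thbs4 acts on ATF6, genes of the ATF6 arm and chaperones of the endoplasmic reticulum were counted. Of 26 genes, 3 were above 2 and 4 below 0.5 at 2 months (17.3% and 22.5% of all genes). Of 25 at 6 months the same numbers were (16.9% and 24.9%). limma called 3 higher and 4 lower (11% and 17.5%). Hsp90b1, the chaperone of integrins and other secreted proteins, fell to ratios of 0.292 and 0.216, and Canx, which folds glycoproteins, to 0.433 and 0.287. Creld1 had ratios of 2.13 and 2.03. Atf6 was at 0.841 and 0.912, and Hspa5, its best known target, at 0.665 and 0.501, neither of them called. With the GC trend subtracted 1 gene was above 2 and 0 were below 0.5 at 2 months, and 2 and 0 at 6 months.

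Other matricellular genes went both ways. Of 20 compared, 8 were above 2 and 5 below 0.5 at 2 months (17.3% and 22.5% of all genes), and 7 and 2 at 6 months (16.9% and 24.9%). With the GC trend subtracted the numbers were 8 and 3, then 8 and 1. limma called 8 higher and 2 lower (11% and 17.5% of all genes). Spock2, a testican proteoglycan, had ratios of 3.15 and 4.63, and Smoc1, a calcium-binding matrix protein, 7.998 and 2.47. Ogn, a small leucine-rich proteoglycan, fell, from 4247 and 9442 in the controls to 767 and 2402 in csPIMT-/- (limma adjusted p = 0.0157). Postn, induced in activated fibroblasts, had ratios of 0.367 and 1.83, so that it lay on the same sides of 1 as Thbs1 and was, like it, not called.

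Of the matrix and protease partners of Comp and the thrombospondins, 16 genes of 19 were compared. At 2 months 2 were above 2 and 3 below 0.5 (17.3% and 22.5% of all genes), and at 6 months 4 and 3 (16.9% and 24.9%). With the GC trend subtracted the numbers were 0 and 7, then 2 and 3. In limma 0 were called higher and 1, the Comp-cleaving protease Adamts7, was called lower, beside 11% and 17.5% of all genes. Unadjusted p under 0.05 was reached by 6738 of all genes in that fit. No gene of this list was past 2-fold the same way at both ages with 100 reads in any library. Matn1, Matn3 and Elane were at 0 in at least 1 library.

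**Figure D5:**
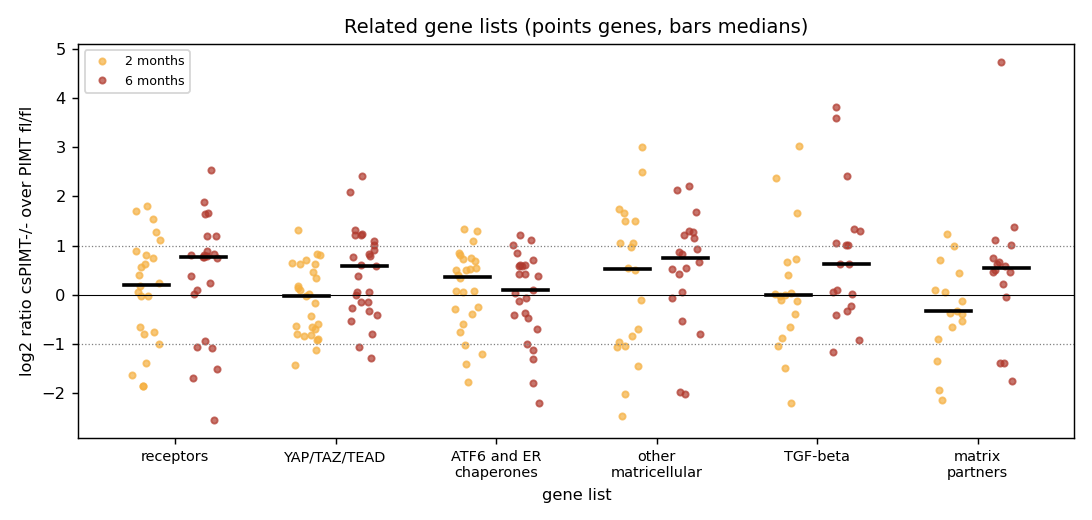
log2 ratio of csPIMT-/- over PIMT fl/fl for the genes of 6 related lists at 2 months (yellow) and 6 months (red), 1 point per gene with bars at the medians and dotted lines at 2-fold. The medians lie between -0.34 and 0.53 at 2 months and between 0.09 and 0.77 at 6 months, and every list has genes on both sides of 0.

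Genes whose pattern over the 4 libraries was most like that of the members measured by RT-qPCR were ranked by the distance between centred log2 values among 12823 genes. Nearest to Ctgf were 4931408A02Rik (distance 0.118), Nbl1, an antagonist of bone morphogenetic proteins (0.137, ratios 2.81 and 8.02), and Tnfrsf12a, the receptor of the cytokine TWEAK (0.154, ratios 2.24 and 8.27). For Wisp2 they were Serpina3c (0.737), Gpnmb (0.826, ratios 15.1 and 10.2) and Syt12 (0.834, ratios 20.9 and 11.5), all at much larger distances than those of Ctgf. For Thbs4 they were Col8a2, a chain of a short collagen (0.448, ratios 3.12 and 6.05), Mgat5b, a glycosyltransferase (0.490, ratios 2.54 and 12.1), and Bdkrb2, a bradykinin receptor (0.5004, ratios 3.27 and 6.87). With 4 libraries these distances describe likeness of pattern alone.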

How the data were processed

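The authors sequenced single-end directional TruSeq mRNA libraries (50 bases), aligned them to mm10 with STAR, counted reads per gene with HTSeq and a UCSC annotation, and normalized with DESeq2. The deposited values are normalized counts, a depth-scaled signal. Divided by the smallest value above 0 of a library, 100% of values came out whole within 1e-06 reads, which recovers the reads. Genes entered a ratio when either library held 10 reads, and were called past 2-fold. With 1 library per group these ratios have no replicate check. limma 3.58.1 (R 4.3.3) was fitted to log2(normalized count + 1), whose fold changes understate those of low genes, for genes with at least 10 reads in 2 libraries. Calls needed an adjusted p under 0.05. edgeR 4.0.16 on the recovered reads, an alternative, called 1673 genes higher and 2663 lower. GC content came from the longest GENCODE M21 transcript (98.8% of genes compared; lowess span 0.3), and 5 members were matched through older symbols.

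The members and all gene lists were chosen with earlier results of these data known. Named besides the members, Wisp3 and Tgs1 are the 2 highest and 2 lowest genes of each list by mean log2 ratio, among those past 2-fold the same way at both ages with 100 reads in a library, and the 3 genes nearest in pattern to Ctgf, Wisp2 and Thbs4. A gene that this rule names in the TGF-beta list is not reported here. Cd36, Cd47, Yap1, Tgfb2, Tgfb3, Atf6, Hspa5, Postn, Adamts7, Ankrd1, Axl, Igfbp3, Lats1, Dlc1 and the marker genes named were chosen after their values were seen.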

Additional observations from a re-analysis of the deposited data

Results flagged for a closer look

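Nov, Thbs1 and Thbs2 stood on opposite sides of 1 at the 2 ages with counting intervals that both excluded 1. Nov had a ratio of 2.04 at 2 months and 0.324 at 6 months. Thbs1 had a ratio of 0.358 at 2 months and 4.24 at 6 months. Thbs2 had a ratio of 0.797 at 2 months and 1.30 at 6 months. With 1 library per genotype and age, the difference between the ages was not tested.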

How the results depend on the processing

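No paired analysis was possible because each group was 1 library without a replicate number. Of the 20 member ratios (10 genes at 2 ages), all kept their direction with TMM, with scaling by the 2 libraries compared, with both controls summed, with the GC trend subtracted and with 0.5 reads added, and 17 did with the control of the other age. With that control Thbs1 at 2 months was 1.14 and Thbs2 crossed 1 at both ages, 10 ratios moved by over 1.5 times, and 1 member was below 0.5 at each age. Members below 0.5 numbered 1 at 2 months with both controls summed and 1 at 6 months with the GC trend subtracted. Genes above 2 at 2 months were 1724 with at least 100 reads and 1687 by a rule, chosen after seeing the data, that the full counting interval exceed 2, which gave 1686 at 6 months. Genes below 0.5 were 1722 at 2 months and 1984 at 6 months with the GC trend subtracted. In limma, 0 genes and 0 members were called higher or lower without the mean trend (5940 genes at unadjusted p under 0.05) or with the GC trend subtracted (3853 genes). edgeR and DESeq2, on the same 4 libraries, each called the same 6 members higher and Wisp1 lower. Of 14933 genes, edgeR called 1673 higher and 2663 lower, and DESeq2 called 2215 higher and 2985 lower. Leaving out each library in turn, with genotype alone in the fit and the lone library taken to vary like the others, gave 3 to 5 members higher, 0 to 1 lower, 274 to 1132 genes higher and 392 to 2043 lower, the fewest members higher (Comp, Thbs4 and Wisp2) without the control of 6 months. The Nov estimate (log2) became 0.49 with the GC trend subtracted, 0.02 without the control of 6 months and 0.70 without csPIMT-/- of 6 months. Without the same libraries Thbs1 became -0.53 and -0.64, and Thbs2 -0.23 and -0.07. Over the fits that left out a library these estimates ranged from -1.30 to 0.70 for Nov, -0.64 to 1.25 for Thbs1 and -0.23 to 0.29 for Thbs2. The causes were not tested. Coding length in place of transcript length was not run. Without replicate libraries, the intervals cover counting error only and leave out the spread between animals.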
